A study of Mus musculus with 12 samples.

Results

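Cell cycle and DNA replication genes were followed in RNA of postnatal day 7 mouse spinal cord, in astrocytes and in the cells sorted away from them. Members were taken by a pattern on gene names that covers the Mcm, Cdc, Cdca, Cdk, cyclin, Cenp, Bub, Aurk, Plk, Ncap, Smc, Rrm, Rfc, Pola, Pold, Pole, Prim and E2f families, several mitotic Kif genes, and Top2a, Mki67, Birc5, Tpx2, Nusap1 and Anln. The pattern found 79 entries in the authors' deposited table of astrocytes against non-astrocytes, which stand for 76 genes of the 4575 genes named in all. No Rfc, Pola, Pold or Pole gene was among them. A pattern on names also takes in genes without a cycle role, such as Cdk5 and the effectors of Cdc42. The 76 genes were therefore divided into 57 genes of 7 cell cycle roles and 19 other genes matched by name.

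The samples were 12 arrays in 4 groups of 3 biological replicates, formed by crossing the part of the cord, dorsal or ventral, with the sort, astrocytes or non-astrocytes. All came from mice of 1 age, day 7 after birth, carrying the Aldh1l1-GFP transgene on a Swiss-Webster background, in which green fluorescent protein follows the promoter of an astrocyte gene. Spinal cord cells freed with papain were flow sorted, GFP-positive cells being taken as astrocytes and GFP-negative cells, a mixture of every other cell type, as non-astrocytes. Groups were taken from the sample titles and the cell type labels, since the source name field gives the GFP-positive sort for every sample. The labels call the samples biological replicates without saying whether each came from its own animal or litter, so p-values measure the spread between these samples.

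A dividing cell copies its DNA in S phase and separates the copies in mitosis. Cyclins bind and switch on cyclin-dependent kinases, which drive each step. Transcription factors of the E2F family turn on replication genes before S phase, while many mitotic genes are held off until late in the cycle through a promoter element called CHR, often found with CCAAT boxes bound by NF-Y. In the first postnatal week glial precursors and astrocytes of the spinal cord still divide, whereas neurons have left the cycle.

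Promoters are shown for the 2 genes of largest difference between the sorts, among those with a single window, in each of 4 roles, to let the E2F and CHR letters of replication and mitotic genes be read side by side. Each line gives 300 bases, from 250 before to 50 after the annotated start of the gene, taken from RefSeq on build GRCm38.p6 and read 5′ to 3′ on the strand of the gene. Capitals mark every match, on either strand, to the E2F-type words TTTGGCGC, TTTCGCGC, TTTCCCGC and TTCCCGCC, to the CHR word TTTGAA and to the word CCAAT. Matches that touch or overlap are written as 1 run of capitals. Mcm6, a subunit of the replicative helicase, lies at chr1:128359656-128359955 on the minus strand in this window, and Rrm2, a subunit of ribonucleotide reductase, at chr12:24708004-24708303 on the plus strand. Mki67, which codes for the proliferation antigen Ki-67, lies at chr7:135716330-135716629 on the minus strand, and Bub1, a spindle checkpoint kinase, at chr2:127831810-127832109 on the minus strand. Of the kinetochore genes, Cenpe lies at chr3:135212313-135212612 on the plus strand and Cenpf at chr1:189688037-189688336 on the minus strand. Anln, coding for the cytokinesis protein anillin, lies at chr9:22389157-22389456 on the minus strand, and Kif20b, a cytokinesis kinesin, at chr19:34922108-34922407 on the plus strand.
Mcm6: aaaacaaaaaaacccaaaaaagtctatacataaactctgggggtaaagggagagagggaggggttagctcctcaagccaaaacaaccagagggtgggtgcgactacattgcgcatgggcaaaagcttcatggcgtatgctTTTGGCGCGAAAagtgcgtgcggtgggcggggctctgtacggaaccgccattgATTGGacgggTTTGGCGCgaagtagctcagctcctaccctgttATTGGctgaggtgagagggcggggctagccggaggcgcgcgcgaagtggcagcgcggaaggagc
Rrm2: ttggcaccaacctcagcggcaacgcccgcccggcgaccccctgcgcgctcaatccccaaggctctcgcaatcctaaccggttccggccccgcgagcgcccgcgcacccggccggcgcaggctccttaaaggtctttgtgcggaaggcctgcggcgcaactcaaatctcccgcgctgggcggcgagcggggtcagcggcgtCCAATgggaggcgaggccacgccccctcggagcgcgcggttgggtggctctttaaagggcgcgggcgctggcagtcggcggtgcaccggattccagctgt
Mki67: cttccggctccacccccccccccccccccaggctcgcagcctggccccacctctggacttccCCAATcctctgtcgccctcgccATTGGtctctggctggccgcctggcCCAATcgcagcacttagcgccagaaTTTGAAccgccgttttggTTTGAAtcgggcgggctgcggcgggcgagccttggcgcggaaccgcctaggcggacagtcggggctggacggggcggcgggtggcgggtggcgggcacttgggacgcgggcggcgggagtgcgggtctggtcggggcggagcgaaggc
Bub1: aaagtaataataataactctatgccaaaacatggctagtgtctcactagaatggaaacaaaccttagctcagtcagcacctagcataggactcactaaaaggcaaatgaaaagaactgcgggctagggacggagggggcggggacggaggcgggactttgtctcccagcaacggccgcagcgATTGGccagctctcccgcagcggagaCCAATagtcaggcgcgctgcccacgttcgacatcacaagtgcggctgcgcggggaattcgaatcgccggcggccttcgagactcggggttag
Cenpe: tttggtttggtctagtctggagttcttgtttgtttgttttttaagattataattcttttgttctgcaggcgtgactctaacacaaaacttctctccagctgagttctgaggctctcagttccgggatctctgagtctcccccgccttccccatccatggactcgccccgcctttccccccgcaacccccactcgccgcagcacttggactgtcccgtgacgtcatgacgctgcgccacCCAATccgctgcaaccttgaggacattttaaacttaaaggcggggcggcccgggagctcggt
Cenpf: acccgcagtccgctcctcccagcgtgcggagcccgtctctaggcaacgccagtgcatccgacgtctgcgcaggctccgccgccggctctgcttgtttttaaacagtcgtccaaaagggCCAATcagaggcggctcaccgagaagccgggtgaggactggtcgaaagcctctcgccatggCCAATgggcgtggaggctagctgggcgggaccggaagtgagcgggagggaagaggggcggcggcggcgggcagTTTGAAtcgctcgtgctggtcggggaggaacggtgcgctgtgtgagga
Anln: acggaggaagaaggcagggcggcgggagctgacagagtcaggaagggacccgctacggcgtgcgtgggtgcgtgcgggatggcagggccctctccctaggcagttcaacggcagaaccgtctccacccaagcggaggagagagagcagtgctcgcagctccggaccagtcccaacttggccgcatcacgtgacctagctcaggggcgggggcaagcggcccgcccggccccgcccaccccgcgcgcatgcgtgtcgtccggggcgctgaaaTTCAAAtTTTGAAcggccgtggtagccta
Kif20b: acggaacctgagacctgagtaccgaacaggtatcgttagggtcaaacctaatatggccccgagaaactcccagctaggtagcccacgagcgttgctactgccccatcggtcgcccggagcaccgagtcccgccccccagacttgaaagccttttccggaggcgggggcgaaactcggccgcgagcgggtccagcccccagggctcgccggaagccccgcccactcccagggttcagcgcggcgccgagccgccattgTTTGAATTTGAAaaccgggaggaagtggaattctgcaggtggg

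The Mcm6 window held 3 E2F-type matches and 2 CCAAT matches but no CHR match. The Mki67 window held 2 CHR and 3 CCAAT matches, and the Anln and Kif20b windows held 2 CHR matches each without either of the other motifs. Bub1 had 2 CCAAT matches alone, Cenpf had 1 CHR and 2 CCAAT matches, and Rrm2 and Cenpe had 1 CCAAT match each.

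Windows were available for 47 of the 57 cycle genes. An E2F-type word occurred in 15 of these 47, or 31.9%, beside 4.0% of the 27025 genes with a window in all. By role it was found in 5 of 7 replication genes, 4 of 9 kinetochore genes and 3 of 5 chromosome structure genes, in 1 of 8 spindle genes and in 0 of 10 mitotic kinase and checkpoint genes. The CHR word showed another distribution, with 7 of 8 spindle genes, 7 of 10 mitotic kinase and checkpoint genes and 4 of 5 chromosome structure genes, but 1 of 7 replication genes. In all, 27 of 47 cycle genes (57.4%) held CHR, beside 20.2% of all genes. CCAAT was in 36 of 47 (76.6%), beside 41.1% of all genes, and CHR and CCAAT stood in the same window in 23 of 47 (48.9%), beside 7.97%. Among the 15 other genes matched by name that had a window, 0 held an E2F-type word, 5 held CHR and 6 held CCAAT. A match describes letters in the window and is not evidence of a bound site, and a window without a match says only that these letters are not in it.

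Signal on these arrays is given as a log2 value per probe set, on which a difference of 1 is a 2-fold difference in signal. Levels are compared within a probe set and not between genes. Markers of the sorted cells followed the sample titles. The summed linear signal of 8 astrocyte markers, among them Aldh1l1, Aqp4 and Gfap, was 13114 to 15879 in the 6 astrocyte arrays and 964 to 1223 in the 6 non-astrocyte arrays. All 8 genes listed as markers of oligodendrocyte precursors, among them Pdgfra, Cspg4, Sox10 and Olig2, were lower in astrocytes. Their summed signal was 1997 to 2684 in astrocyte arrays and 5626 to 7633 in the others. The list does not separate dividing precursors from other cells of their lineage. The 8 microglial markers had sums of 751 to 1272 against 3632 to 5866, the 6 myelin markers 3719 to 5744 against 13828 to 18097, and the 3 red blood cell markers 549 to 1501 against 10376 to 12487. Endothelial markers (5 measured of 6) and mural markers (3 measured of 4) were all lower in astrocytes. Only 1 of the 5 endothelial markers was lower without overlap, and their sums were 369 to 415 against 440 to 989. The mural sums were 284 to 532 against 877 to 3733. Of 5 measured neuronal markers 2 were higher and 3 lower. The part these cell types have in the level of the cycle genes was not tested, and in sorted bulk RNA fewer cells of a type cannot be told apart from less RNA per cell.

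The arrays labelled replicate 3 stood apart for the cycle genes. The median deviation of the 57 genes from their own means was -0.34, -0.33 and -0.72 in dorsal astrocytes of replicates 1, 2 and 3, and -0.48, -0.26 and -0.67 in ventral astrocytes. In dorsal non-astrocytes it was 0.64, 0.51 and 0.33, and in ventral non-astrocytes 0.58, 0.62 and 0.29. Replicate 3 was thus the lowest of its group in all 4 groups. The median deviation of an array lay between -0.03 and 0.03 over all probe sets tested, and between -0.09 and 0.11 over the named probe sets. The deposited arrays had nearly equal medians (6.57 to 6.62), so the range over all probe sets had to lie near 0. In non-astrocytes of replicate 3 the summed precursor markers were also the lowest of their region (6738 dorsal, 5626 ventral). The microglial (5866 and 5354), myelin (15793 and 18097) and red blood cell sums (12298 and 12487) were the highest. Endothelial, mural, neuronal and astrocyte sums of replicate 3 did not rank alike in both regions. The part of these sums in the level of the cycle genes was not tested. In astrocytes the precursor sum of replicate 3 was the highest of its group dorsally (2287, against 2216 and 1997) and the lowest ventrally (2386, against 2547 and 2684). An F test of limma on the replicate number, made after these values were seen, called 0 of the 57 at an adjusted p under 0.05, beside 0.0738% of all probe sets, while 35 of 57 (61.4%) had an unadjusted p under 0.05, beside 8.96%. Of the named probe sets, 0.0586% were called and 16.1% had an unadjusted p under 0.05. Among the 57 genes the lowest adjusted p was 0.172, for the spindle kinesin Kif15. Without replicate 3 the direction of every cycle gene in astrocytes against non-astrocytes was kept, with 54 lower and 3 higher. The genes were named for differing in this comparison on these same arrays. A kept direction was thus close to fixed in advance, and nothing is read from it.

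**Figure D1:**
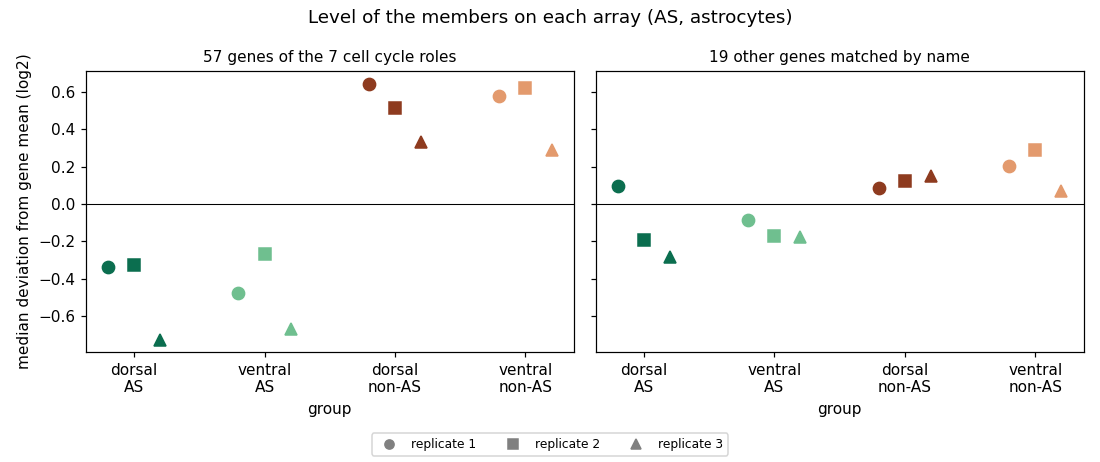
Median deviation of each array from the gene means, in log2 units, for the 57 genes of the cell cycle roles (left) and the 19 other genes matched by name (right). Points are arrays, grouped by region and sort. All 6 astrocyte arrays of the cycle genes lie below 0, between -0.72 and -0.26, and all 6 non-astrocyte arrays lie above 0, between 0.29 and 0.64.

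The comparison of astrocytes with non-astrocytes asks how the sorted astrocytes differ from the rest of the cord. Of the 57 cycle genes, 54 were lower in astrocytes and 3 were higher, and the median difference was -0.99 on the log2 scale, within a range from -2.62 to 1.16. Replication, mitotic, kinetochore, spindle, chromosome structure and inhibitor genes were lower without exception, and the 3 genes in the other direction, Ccnd2, E2f5 and E2f6, belonged to the cyclins, kinases and E2F factors. The groups did not overlap for 52 of the 57, with 49 genes where every astrocyte array was below every non-astrocyte array (12.0% of all probe sets) and 3 where it was above (10.3%). A difference over 2-fold toward non-astrocytes was found for 28 of 57, beside 2.71% of all probe sets. Among all 4575 named genes, which passed the same table, 2330 were lower and 2245 higher in astrocytes. Without overlap, 1945 of the named genes were lower and 1974 higher, and 635 (13.9%) were over 2-fold lower. Most named genes thus did not overlap either. Their median of -0.37 lies at the edge of the range that the table leaves out.

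These values are a description and carry no test. The gene names come from the authors' deposited table of this same comparison, which lists only entries with an adjusted p up to 0.15 and an absolute log2 difference of at least 0.3505. A member had to differ in order to be named, so nothing is read from how many members differ or from how far, and genes that did not differ are not seen here. The limma fit over all 28467 probe sets called 36.2% of them, 19.7% as lower and 16.5% as higher in astrocytes. All 76 members lay among those called, 64 lower and 12 higher. In the authors' own deposited test the adjusted p of member entries reached 0.127, for Mcm8, so not every member was under 0.05 there. The members nearest to the limit of the table were Cenpc1 and Cdc27, both at a difference of -0.38. Within dorsal samples the median over the 57 genes was -1.03 and within ventral samples -0.96, with 54 lower and 3 higher in each.

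**Figure D2:**
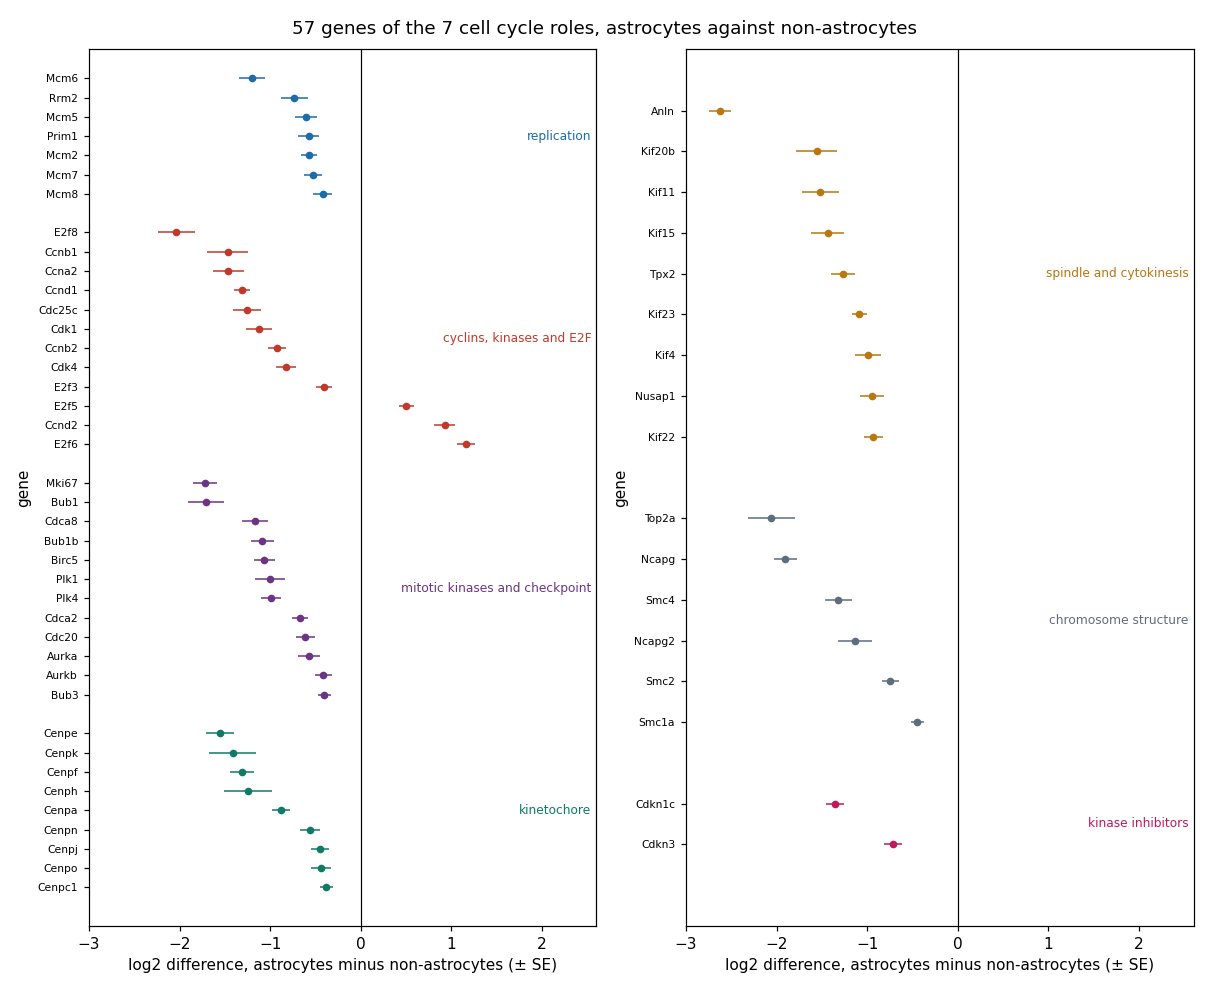
Log2 difference of astrocytes minus non-astrocytes with its standard error for the 57 genes of the cell cycle roles, arranged by role. In every role but cyclins, kinases and E2F all points lie left of 0, with Anln farthest at -2.62, and the 3 points right of 0 are E2f5, Ccnd2 and E2f6.

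The 7 replication genes had a median difference of -0.58. Mcm6 was 7.16, 6.50 and 6.41 in dorsal astrocytes, 6.56, 7.06 and 6.71 in ventral astrocytes, 8.03, 8.20 and 7.68 in dorsal non-astrocytes and 7.92, 8.11 and 7.69 in ventral non-astrocytes. The 2 sorts did not overlap, and Mcm6 was the only replication gene more than 2-fold lower in astrocytes, at -1.20 (SE 0.14). Rrm2, which makes deoxynucleotides, followed at -0.73 (SE 0.15), with a mean of 6.49 ± 0.37 on astrocyte arrays and 7.23 ± 0.16 on the others (SD, n = 6 in each sort). The helicase subunits Mcm5 and Mcm2 differed by -0.60 (SE 0.12) and -0.58 (SE 0.09), and Prim1, a subunit of the primase that starts DNA strands, by -0.58 (SE 0.11). Mcm8, a helicase with a role in recombination, had the smallest difference of the 7, at -0.42 (SE 0.10), and its astrocyte and non-astrocyte arrays overlapped.

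Among the 12 cyclins, cyclin-dependent kinases and E2F factors, counted together with the phosphatase Cdc25c that activates Cdk1, 9 were lower and 3 higher in astrocytes. E2f8, an E2F factor that represses E2F targets, was 6.49, 5.82 and 5.84 in dorsal astrocytes and 6.31, 6.24 and 5.41 in ventral astrocytes. Its values in non-astrocytes were 8.20, 8.29 and 7.78 dorsally and 7.79, 8.59 and 7.66 ventrally, a difference of -2.03 (SE 0.20) with no overlap. The mitotic cyclin Ccnb1 was 6.49 ± 0.57 in astrocytes and 7.96 ± 0.23 outside them (SD, n = 6 each). Its brightest probe set differed by -1.47 (SE 0.23) and the 2 others by -1.50 and -1.56. Ccna2, the cyclin of S phase and of entry into mitosis, differed by -1.46 (SE 0.17). Cdk1, the kinase that both partner with, was 6.38 ± 0.38 against 7.50 ± 0.22, a difference of -1.12 (SE 0.15). E2f3, an activating E2F, was closest to 0 among the 9, at -0.41 (SE 0.09).

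The D-type cyclins, which carry growth signals to the kinases Cdk4 and Cdk6, differed in opposite directions. Ccnd1 was 7.42, 7.31 and 6.96 in dorsal astrocytes, 7.49, 7.45 and 7.24 in ventral astrocytes, 8.85, 8.69 and 8.62 in dorsal non-astrocytes and 8.55, 8.52 and 8.48 in ventral non-astrocytes. Every astrocyte array was lower, and the difference was -1.31 (SE 0.09). Ccnd2 was 9.44, 9.12 and 8.82 in dorsal astrocytes, 9.03, 9.24 and 8.63 in ventral astrocytes, 8.41, 8.21 and 8.29 in dorsal non-astrocytes and 8.08, 7.86 and 7.90 in ventral non-astrocytes. Every astrocyte array was higher, by 0.92 (SE 0.12) on average, with 0.82 within the dorsal and 1.02 within the ventral samples.

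E2f6, a repressor of the family that acts with Polycomb proteins, was also higher in astrocytes. Its values were 8.04, 7.94 and 8.28 in dorsal and 8.15, 8.25 and 8.06 in ventral astrocytes, against 6.78, 7.36 and 6.98 in dorsal and 6.75, 7.02 and 6.85 in ventral non-astrocytes. The groups stood apart by 1.16 (SE 0.10), the largest difference toward astrocytes in the 7 roles. E2f5, a repressor that works with pocket proteins, was 7.87 ± 0.22 in astrocytes and 7.37 ± 0.09 outside them (SD, n = 6 each), a difference of 0.50 (SE 0.08) without overlap.

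**Figure D3:**
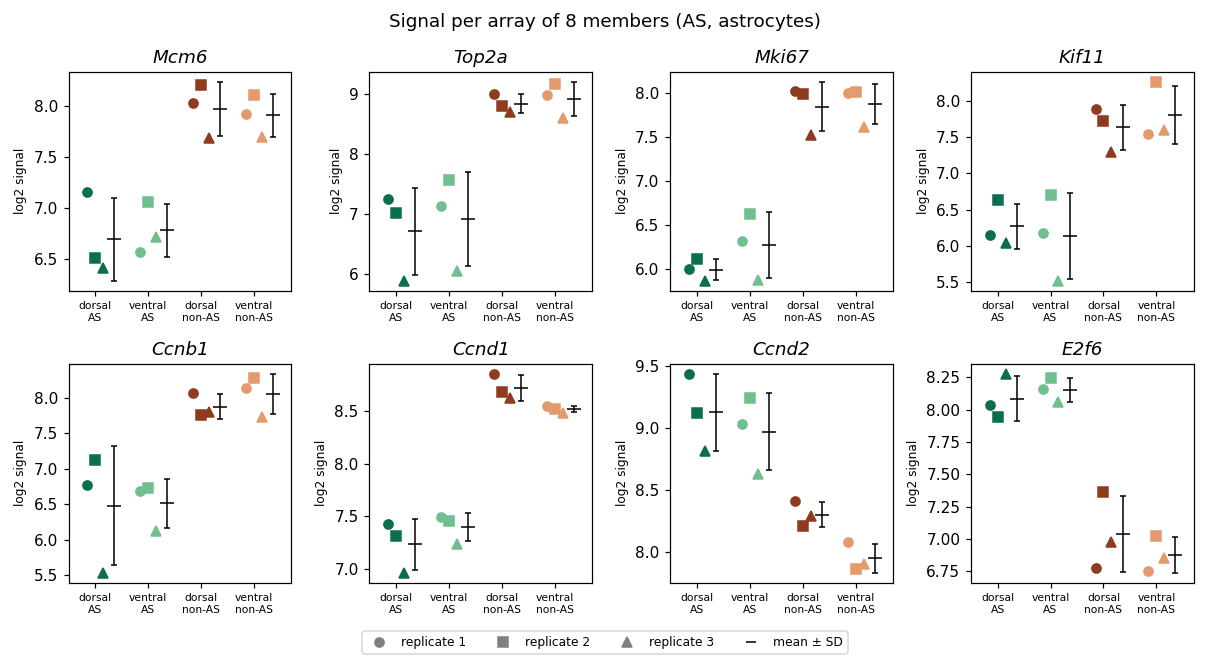
Log2 signal on each of the 12 arrays for Mcm6, Top2a, Mki67, Kif11, Ccnb1, Ccnd1, Ccnd2 and E2f6, by group, with marker shape for the replicate number and bars for the mean ± SD of 3 arrays. Ccnd2 and E2f6 are higher in both astrocyte groups and the other 6 genes are lower, and for Top2a the replicate 3 arrays of both astrocyte groups, at 5.90 and 6.06, lie below the other arrays of their group.

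All 12 mitotic kinase and checkpoint genes were lower in astrocytes, with a median of -0.997. Mki67 was 6.0, 6.11 and 5.87 in dorsal astrocytes, 6.32, 6.62 and 5.88 in ventral astrocytes, 8.02, 7.98 and 7.52 in dorsal non-astrocytes and 7.99, 8.0 and 7.61 in ventral non-astrocytes. No array of one sort reached the other, and the difference of -1.72 (SE 0.13) is a 3.3-fold lower signal. Bub1, which recruits checkpoint proteins to kinetochores, was 5.45 ± 0.52 against 7.16 ± 0.25 (SD, n = 6 each), or -1.71 (SE 0.20). Its dorsal astrocyte array of replicate 3 read 4.49, the lowest of the 12. Cdca8, the chromosomal passenger protein borealin, differed by -1.17 (SE 0.14), and Bub1b, the checkpoint protein BubR1, by -1.09 (SE 0.13). Aurka, the kinase of spindle poles, was the only gene of this role whose sorts overlapped.

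The 9 genes with a Cenp name, grouped here as kinetochore genes, had a median of -0.88, and 3 of them, Cenpc1, Cenpj and Cenpo, overlapped between the sorts. Cenpj is a protein of centrioles despite its name. Cenpe, a kinesin that moves chromosomes to the spindle equator, was 6.28 ± 0.25 in astrocytes and 7.83 ± 0.32 outside them (SD, n = 6 each), a difference of -1.56 (SE 0.15). Cenpk and Cenph, both of the inner kinetochore, differed by -1.41 (SE 0.26) and -1.25 (SE 0.27), and Cenpf, of the outer kinetochore, by -1.31 (SE 0.13). Cenph was the least even, with 6.47, 6.43 and 4.73 in dorsal astrocytes, and its difference was -1.06 without replicate 3.

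The 9 spindle and cytokinesis genes stood apart between the sorts without exception, with a median of -1.26 and no value closer to 0 than -0.93. Anln was 5.78, 5.65 and 5.57 in dorsal astrocytes, 5.91, 5.56 and 5.94 in ventral astrocytes, 8.15, 7.61 and 8.40 in dorsal non-astrocytes and 8.54, 8.59 and 8.87 in ventral non-astrocytes. This was the largest difference of all members, -2.62 (SE 0.12), a 6.17-fold lower signal in astrocytes. Anln is also known as a component of myelin in oligodendrocytes, and the part of these cells in the Anln signal was not tested. Its replicate 3 arrays were the highest of the non-astrocytes in both regions. Among the kinesins, Kif20b differed by -1.56 (SE 0.22), Kif11, which pushes spindle poles apart, by -1.52 (SE 0.20), and Kif15, which can stand in for it, by -1.44 (SE 0.18).

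All 6 chromosome structure genes were lower and did not overlap, with a median of -1.22. Top2a, the topoisomerase that untangles sister chromatids, was 7.25, 7.02 and 5.90 in dorsal astrocytes, 7.15, 7.56 and 6.06 in ventral astrocytes, 9.01, 8.81 and 8.70 in dorsal non-astrocytes and 8.98, 9.17 and 8.61 in ventral non-astrocytes. The sorts were separate, and the difference was -2.06 (SE 0.26), or -1.75 without replicate 3. The condensin subunits Ncapg, Smc4 and Ncapg2, which compact mitotic chromosomes, differed by -1.90 (SE 0.13), -1.32 (SE 0.15) and -1.13 (SE 0.18). The cohesin subunit Smc1a, which also works outside the cycle, had the smallest difference, -0.45 (SE 0.07).

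Both inhibitor genes were lower in astrocytes, in the same direction as the genes of division. Cdkn1c, coding for the inhibitor p57, was 7.72, 7.56 and 7.54 in dorsal astrocytes, 7.82, 7.80 and 7.44 in ventral astrocytes, 8.97, 9.07 and 8.57 in dorsal non-astrocytes and 9.18, 9.23 and 8.99 in ventral non-astrocytes. The sorts did not overlap and differed by -1.36 (SE 0.10). Cdkn3, a phosphatase that acts on cyclin-dependent kinases, differed by -0.71 (SE 0.10).

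The 19 other genes matched by name did not share a direction, with 10 lower and 9 higher in astrocytes and a median of -0.38. Over all 76 members this gave 64 lower and 12 higher. Cdk5rap2, a centrosome protein, was 9.04 ± 0.18 in astrocytes and 7.86 ± 0.08 outside them (SD, n = 6 each), a difference of 1.18 (SE 0.09). The kinase Cdkl3 was higher by 0.58 (SE 0.12), and Cdc42ep4, an effector of the GTPase Cdc42, by 0.80 (SE 0.10). Cdkal1, a tRNA-modifying enzyme, Cdc14a, a phosphatase, Cdc42ep1, Cdk2ap1 and Cdk8, a kinase of Mediator, were higher by 0.39 to 0.47. In the other direction stood Plk3, a stress-responsive kinase, at -1.34 (SE 0.09), and Cdc42se2, a further Cdc42 effector, at -1.03 (SE 0.10). Prima1, which anchors acetylcholinesterase to membranes and matched only through the letters of its name, differed by -0.69 (SE 0.08).

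Further genes of the pathway, outside the name pattern, were read from a list of 86, of which 43 were measured under a name. In astrocytes 42 of them were lower and 1 was higher, with a median of -0.88. The groups did not overlap for 36 of the lower genes and for the higher one. Among all named genes this held for 1945 of the 2330 lower and 1974 of the 2245 higher genes. Over all probe sets 12.0% were lower and 10.3% higher without overlap. Cks2, a partner of cyclin-dependent kinases, differed by -1.88 (SE 0.23), the kinetochore scaffold Knl1 by -1.76 (SE 0.24) and the midzone protein Prc1 by -1.64 (SE 0.13). Foxm1, a transcription factor of mitotic genes, differed by -0.92 (SE 0.13), and Pcna, the sliding clamp of DNA polymerases, by -0.66 (SE 0.09). The gene in the other direction was Rb1, coding for the retinoblastoma protein that restrains E2F factors. It was 9.91 ± 0.30 in astrocytes and 8.60 ± 0.11 outside them (SD, n = 6 each), a difference of 1.31 (SE 0.07), and these genes were selected through the same deposited table as the members.

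The regional comparisons ask whether dorsal and ventral cells of one sort differ, and they do not use the difference that put the members in the authors' table. That table's limit on the adjusted p also depends on the spread between arrays, so the shares of members and of all probe sets are not free of this selection. In non-astrocytes limma called 0 of 76 members at an adjusted p under 0.05, beside 0.0492% of all probe sets, and 4 of 76 had an unadjusted p under 0.05, beside 5.25%. In astrocytes it called 0 of 76, beside 0.341%, and 4 of 76 had an unadjusted p under 0.05, beside 10.4%. The median regional difference of the 57 cycle genes, dorsal minus ventral, was -0.02 in each sort. In non-astrocytes the 95% interval of the difference lay within 1 log2 unit of 0 for 76 of 76 members. In astrocytes it did so for 74 of 76, the exceptions being Cenph, with an upper bound of 1.16, and Cenpk, with 1.08. These intervals come from the fit without the replicate number. Over the 4 groups, replicate 3 minus replicate 1 was -0.78 for Cenph and -0.93 for Cenpk. A regional difference in signal of more than 2-fold thus lay outside the interval for all but these 2 genes of astrocytes. The mean signal lay below the average array median for 39 of 76 members in astrocytes and 2 of 76 in non-astrocytes. How far a low signal follows differences in RNA was not tested, so the intervals bound the signal only. The widest interval reached 0.82 on either side in each sort, so smaller differences remained within the intervals of some members.

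**Figure D4:**
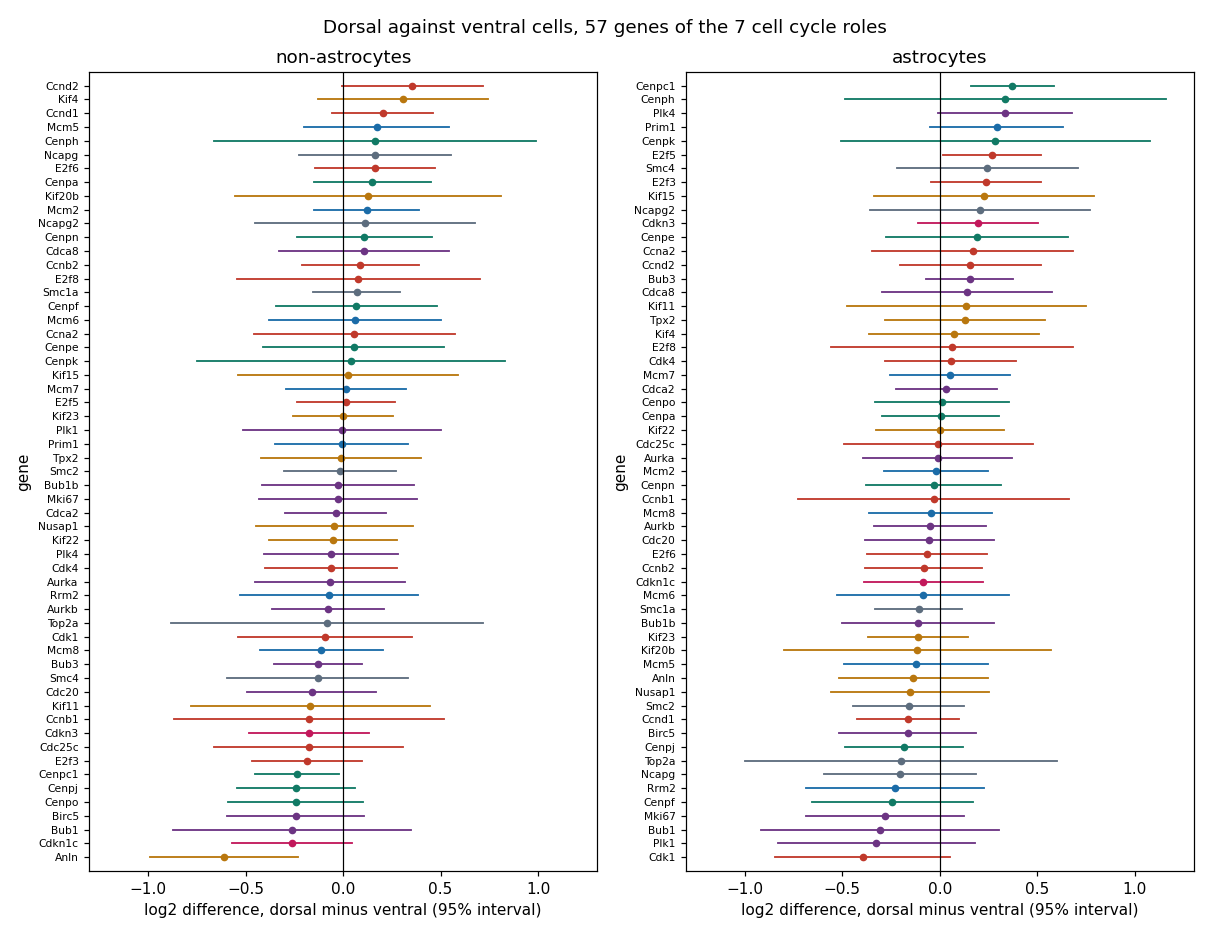
Dorsal minus ventral difference in log2 units with its 95% interval for the 57 cycle genes, in non-astrocytes (left) and astrocytes (right), from the limma fit. The points lie around 0, with a median of -0.02 in each panel. Anln at -0.61 is the lowest in non-astrocytes, and in astrocytes the intervals of Cenpc1, at 0.37, and E2f5, at 0.27, lie above 0.

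The members of lowest p are given as values. In non-astrocytes Anln differed by -0.61 (SE 0.18, limma adjusted p = 0.474), and every dorsal array was below every ventral one. Cdc14a was higher dorsally in both sorts, by 0.42 in non-astrocytes (limma adjusted p = 0.658) and 0.46 in astrocytes (limma adjusted p = 0.296). Neither passed the threshold.

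Replicate numbers pair the non-astrocyte arrays, as their residuals moved together, so the contrast was also fitted with the replicate number as a block. Over the 12 arrays the blocked limma fit called 0 of 76 members, beside 0% of all probe sets, and 7 of 76 had an unadjusted p under 0.05, beside 6.03%. In a blocked fit of the 6 non-astrocyte arrays alone, added after the data were seen, 0 of 76 were called, beside 0%, and 11 of 76 had an unadjusted p under 0.05, beside 9.66%. All 3 pairs had the same sign for 26 of 76 members. The share over all probe sets was not computed, so nothing is read from this count. The dorsal minus ventral difference of Ccnd2 was 0.33, 0.35 and 0.39 in the pairs of replicates 1, 2 and 3, and that of E2f3 was -0.17, -0.23 and -0.15. Their limma adjusted p-values in the blocked fit of 12 arrays were 0.674 and 0.976, and in that of 6 arrays 0.264 and 0.492. Anln, with -0.38, -0.98 and -0.47 in the pairs, had adjusted p-values of 0.331 and 0.281. Cdc14a, with 0.45, 0.33 and 0.48, had limma adjusted p-values of 0.569 and 0.245, the latter the lowest of the members in the fit of 6 arrays.

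Cenpc1, which codes for the protein that joins centromeric chromatin to the kinetochore, showed opposite regional differences in the sorts. It was 7.80, 7.61 and 7.75 in dorsal and 7.17, 7.51 and 7.37 in ventral astrocytes, and 7.76, 7.75 and 7.88 in dorsal and 8.02, 8.10 and 7.98 in ventral non-astrocytes. Every dorsal array was above every ventral one in astrocytes and below every ventral one in non-astrocytes. The astrocyte difference was 0.37 (SE 0.10, limma adjusted p = 0.191) and the non-astrocyte difference -0.24 (SE 0.10, limma adjusted p = 0.864). The difference between both regional differences, tested as an interaction, was 0.61 (SE 0.14), with a 95% interval from 0.30 to 0.91 and a limma adjusted p of 0.290, so it was not called.

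Over all members the interaction of region and sort called 0 of 76 in limma, beside 0.0632% of all probe sets, and 2 of 76 had an unadjusted p under 0.05, beside 7.23%. Besides Cenpc1 this was E2f3, at 0.42 (adjusted p = 0.662). The interval lay within 1 log2 unit of 0 for 67 of 76 members, and the widest reached 1.17 on either side. Of the 43 further pathway genes limma called 0 in either regional comparison and 0 in the interaction, with 1, 6 and 3 at an unadjusted p under 0.05 in non-astrocytes, astrocytes and the interaction, beside the 5.25%, 10.4% and 7.23% of all probe sets. Rb1, higher dorsally by 0.52 in astrocytes, came nearest, with an adjusted p of 0.060.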

How the data were processed

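RNA of 12 sorted samples, 3 per group in 4 groups, was purified, amplified and labelled with biotin for expression arrays, per the labels' protocols. The authors deposited log2 values per probe set for the whole series, and oligo, RMA and limma are named in the submitters' processing notes. Versions, probe annotation and genome build were not given in the sources used here. In the authors' deposited table of astrocytes against non-astrocytes stand a gene name, the log2 values, a linear ratio (fold change), a t statistic score, and raw and adjusted p-values per entry. The number of arrays, not a read depth, limits the precision, and array medians lay between 6.57 and 6.62.

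Of 35556 probe sets, 476 repeated another in all arrays and were collapsed, and the first 6613, numbered in 1 unnamed run, were left out as control-type, leaving 28467. Probe sets took the name of the entry with the same 12 values at 6 decimals, which found all 5158 and 39 entries of the authors' tables and named 5116 probe sets of 4575 genes, leaving 3 with conflicting names unnamed. Member entries were matched to RefSeq (assembly GRCm38.p6), 76 as symbols and 3 as synonyms, and 62 of 76 members had a promoter window. A gene counted for a motif if any of its windows held it. The brightest probe set stood for a gene with several.

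Contrasts were fitted with limma 3.58.1 in R 4.3.3 (lmFit, eBayes), with 1 mean per group over the 12 arrays, 8 residual and 4.6 prior degrees of freedom, two-sided tests and Benjamini-Hochberg adjustment over the 28467 probe sets at 0.05. Intervals are 95% intervals of the moderated fit. The fit was tested on simulated data. Further steps used Python 3.11.15, pandas 2.3.3 and matplotlib 3.10.9. Named genes were, per role, up to 4 of largest difference and those against the majority of their role, the 2 of lowest p where a contrast called none, and Mki67, Top2a, Cdk1, Ccnb1, Ccnd1, Ccnd2, Cdkn1a, Cdkn1c, Mcm2 and Prima1 where measured; further genes named for overlap or nearness to a limit, and those of the pathway list, were added with their values in view. The result of 1 gene under this rule is not reported here. The members, roles and lists were chosen with earlier results of these data known.

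Groups share replicate numbers in the labels. Across probe sets, the residuals of arrays that share a number correlated at 0.147 to 0.209 between dorsal and ventral non-astrocytes, so these were taken as paired. Between dorsal and ventral astrocytes they correlated at 0.041 to 0.145, above the -0.101 to 0.034 of arrays with different numbers. Across the sorts, arrays that share a number correlated at 0.039 to 0.096 in dorsal and 0.086 to 0.124 in ventral samples. With different numbers the ranges were -0.105 to 0.056 and -0.1 to -0.017. Astrocytes were not taken as paired, with each other or with non-astrocytes. For them and for the interaction the replicate block was run only as an alternative, without intervals. Alternatives were the replicate block, each array and each replicate number left out, the unnamed run included, dim probe sets left out, array weights, an intensity trend, arrays centred on their medians, only the compared arrays, all probe sets of a gene and, added after the data were seen, the block with only the non-astrocyte arrays.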

Additional observations from a re-analysis of the deposited data

How the results depend on the processing

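The 1068 recomputed values of named genes kept their direction under the alternatives run. Values of the regional comparisons and the interaction also kept their side of the threshold. Values of astrocytes against non-astrocytes carry no test, and each moved by less than the pooled SD within groups. The counts of cycle genes lower (54) and higher (3) in astrocytes were the same when any array or replicate number was left out. These genes were named for differing in this comparison on the same arrays. Their kept direction was close to fixed in advance, and nothing is read from it. With dim probe sets left out the count fell to 40 lower, since fewer genes were then tested. Without the other genes matched by name, members higher in astrocytes went from 12 to 3. With the replicate block, as with each other alternative, 0 members were called in either regional comparison or in the interaction, so the block changed no call of a member. Adjusted p-values of limma over the alternatives ranged from 0.127 to 0.668 for Cenpc1 in astrocytes and from 0.167 to 0.862 for its interaction, from 0.200 to 1.0 for Anln in non-astrocytes, from 0.245 to 1.0 and from 0.192 to 0.628 for Cdc14a in non-astrocytes and astrocytes, and from 0.459 to 0.926 for the interaction of E2f3. Over all probe sets the regional calls were less steady. The 14 calls in non-astrocytes became 0 with the replicate block or with the unnamed run included and 43 with array weights. The 97 calls in astrocytes became 108 with the block, 46 with the unnamed run, 35 with weights, 27 with only the compared arrays and 8 without replicate 2. The 18 interaction calls became 12 with the block, 3 with the unnamed run and 1 without replicate 1. With an array or a replicate number left out, the calls in non-astrocytes lay between 0 and 31, those in astrocytes between 8 and 101 and those of the interaction between 1 and 14. The cause of these shifts was not tested. With 3 arrays a group, the widest regional interval of a member reached 0.82 on either side in the fit without the replicate number. In the blocked fits of non-astrocytes it reached 0.51 over 12 arrays and 0.43 over 6.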

Other observations

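The lower level of cycle genes on replicate 3 arrays was looked at gene by gene after the values were seen. Of the 57 cycle genes, replicate 3 was the lowest array for 43 in dorsal astrocytes, 41 in ventral astrocytes, 43 in dorsal non-astrocytes and 45 in ventral non-astrocytes. Over all probe sets the shares were 32.3%, 35.8%, 33.8% and 34.7%, and over the named probe sets 33.25%, 43.14%, 34.58% and 32.25%. Replicate 3 was the lowest in all 4 groups at once for 22 of the 57 (38.6%), beside 2.49% of all and 4.40% of named probe sets. The median difference of replicate 3 minus replicate 1 was -0.29 over the 57 genes, and that of replicate 2 minus replicate 1 was 0.05. What the replicate numbers share is not stated in the labels.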
